A study of Mus musculus with 8 samples.

Results

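Endothelial cells line the blood vessels, the lymphatic vessels and, as endocardium, the chambers of the heart. The genes described here mark these cells or carry the angiogenic signals between them and their neighbours. They are 40 genes of a fixed list, found by symbol among the 54532 genes of a count table from mouse atria, and all 40 had enough counts to be tested, among 18033 tested genes. The list was divided by role into 12 genes of the endothelial surface, junctions and secretions, 4 transcription factors, 5 receptors and 5 ligands of the VEGF and angiopoietin families, 6 Notch and ephrin genes of arteries and veins, 3 capillary genes, 2 endocardial genes and 3 lymphatic genes.

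The 8 libraries came from right and left atria of mice with floxed Chd4 alleles (Chd4flox/flox). On postnatal day 2 the mice had received an adeno-associated virus of serotype 9, either AAV9:Nppa-Cre (KO, 4 libraries) or AAV9:Nppa-EGFP (control, 4 libraries). Chd4 encodes the ATPase of the NuRD chromatin remodelling complex, and Nppa, the source of the vectors' promoter, is a gene of atrial muscle cells. Endothelial cells are therefore not the cells in which that promoter is known to be active, and the comparison asks how transcripts of the vessel lining differed in atria whose muscle had received Cre. Both groups carried the floxed alleles, while Cre was given to KO alone and EGFP to control alone, so Chd4 loss, Cre and EGFP cannot be told apart. The labels give the cell type as mixed. Neither the age at collection nor the number of mice behind a library was given in the sources used here.

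As background, VEGF ligands act on the receptor tyrosine kinases encoded by Flt1, Kdr and Flt4, of which Kdr carries most of the growth signal, Flt1 binds ligand without much signalling, and Flt4 serves lymphatic and sprouting endothelium. Angiopoietins act on the receptor encoded by Tek: Angpt1 stabilises vessels and Angpt2 opposes it in many settings. Between neighbouring endothelial cells, the Notch ligands of Dll4 and Jag1 and the ephrin pair of Efnb2 (arterial) and Ephb4 (venous) set sprouting and the identity of arteries and veins.

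Total counts were 34002292 to 38228982 in KO and 39804625 to 40588007 in control. Chd4 itself was at 169 to 200 CPM (counts per 1e6 counts, scaled between libraries) in KO and at 278 to 308 CPM in control (log2 fold change -0.66, SE 0.06, edgeR adjusted p = 1.86e-05). On the second principal component the scores were -21.4 for KO 2 and -30.4 for control 2, and 1.3 to 14.5 for the rest. Y-linked transcripts were near background in KO 2 and in controls 1 and 2 (mean log2 level -1.34 to -0.99) and at 5.51 to 5.75 in the rest. By these transcripts neither group was of a single sex, and the groups differed in sex make-up. Some markers of other cell types also differed between the groups. The counts of markers that follow stand beside 14.8% higher and 13.1% lower over all tested genes (edgeR adjusted p under 0.05). The summed level of 8 cardiomyocyte markers was 43064 to 55094 CPM in KO and 63662 to 72189 CPM in control. Much of it was Myh6, at a mean of 26991 CPM in KO and 40488 CPM in control. Of these 8 markers 6 fell and 1 rose, Pln (427 to 432 CPM in KO, 318 to 408 CPM in control, edgeR adjusted p = 0.0149). Of 8 fibroblast markers 4 rose (7835 to 9156 CPM in sum against 7858 to 8194), of 8 macrophage markers 4 rose (428 to 604 against 373 to 465) and of 5 epicardial markers 4 rose (615 to 761 against 470 to 602). The fibroblast marker with the highest CPM, Gsn, was lower in KO without overlap (3590 to 3798 against 3894 to 4306 CPM), though not called by edgeR (adjusted p = 0.0806). Of 8 mural cell markers, 2 rose and 3 fell (450 to 597 CPM in sum against 526 to 824). None of these markers was at 0 in any library. Lymphocyte markers were low, at 9.29 to 14.6 CPM in sum in KO and 3.69 to 7.27 CPM in control, and 2 of 6 rose. Of 5 erythroid markers 1 fell (754 to 1875 CPM in sum against 1047 to 1978), and of 4 Schwann cell markers 0 passed by edgeR, DESeq2 or limma-voom (1 at an unadjusted p under 0.05). The 4 adipocyte markers summed to 53.2 CPM in KO 4 and to at most 2.42 CPM in any control library. The part of these cell types in the results on endothelial genes was not tested. In whole tissue, fewer cells of a type and less RNA per cell cannot be told apart.

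Of the 40 genes, 13 rose, 5 fell and 22 did not pass the test, edgeR's quasi-likelihood test with an adjusted p under 0.05 (Benjamini-Hochberg over all tested genes). Over all 18033 tested genes 27.9% passed, 14.8% higher and 13.1% lower in KO. The median log2 fold change of the 40 genes was 0.15, beside 0.01 for all tested genes, and the range ran from -0.62 (Gpihbp1) to 0.77 (Flt4). The KO and control values did not overlap for 16 of the 40 genes, 13 higher and 3 lower in KO, while 29.2% of all tested genes had groups that did not overlap. With libraries scaled by total counts alone, 16 genes rose and 3 fell, and the share of higher genes among all calls went from 53.2% to 70.1%. Without control 4, 8 genes rose and 3 fell. Without KO 2, KO 3 or control 1 the count of lower genes was likewise 3, and without control 3 it was 8. The calls on 7 genes held in each of 21 alternative analyses: Emcn, Eng, Sox7, Flt4, Angpt2 and Efnb2 rose, and Prox1 fell.

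**Figure D1:**
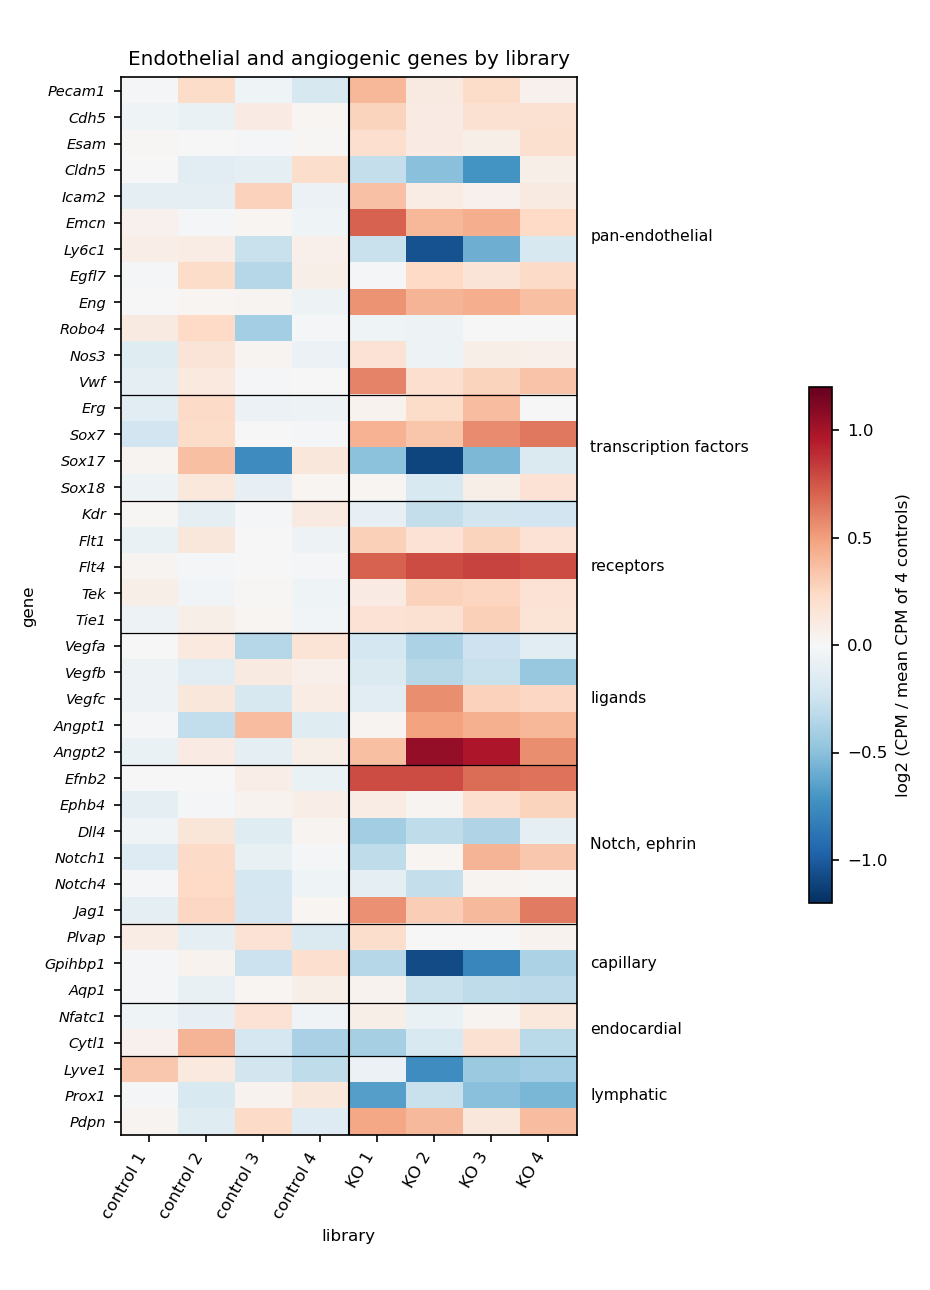
Level of each of the 40 genes (rows, by role) in each of 8 libraries (columns), as log2 of its CPM over the mean of the 4 control libraries; red is higher, blue is lower. Flt4 and Efnb2 are evenly red over the 4 KO libraries, while Gpihbp1 and Ly6c1 are deepest blue in KO 2.

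Among the 5 ligands, Angpt2 rose and Vegfb fell, beside 14.8% higher and 13.1% lower over all tested genes. In this and the following sentences 4 values stand in the order of libraries 1 to 4. Angpt2 (ENSMUSG00000031465, chromosome 8, 18690263 to 18741562, minus strand; all coordinates are on GRCm38) was at 27.3, 44.0, 41.6 and 31.2 CPM in KO and at 20.1, 22.7, 19.7 and 22.3 CPM in control. Every KO library lay above every control library, with the widest spread in KO, where libraries 2 and 3 were highest. The change was 1.70-fold (log2 fold change 0.76, SE 0.14, edgeR adjusted p = 0.00282). Vegfb (ENSMUSG00000024962, chromosome 19, 6982473 to 6987651, minus strand), whose product binds the Flt1 receptor and which is abundant in cardiac muscle, was at 97.9, 87.3, 91.5 and 80.3 CPM in KO and at 106, 101, 119 and 115 CPM in control. Without overlap between the groups, the decrease was 1.23-fold (log2 fold change -0.30, SE 0.07, edgeR adjusted p = 0.00927). It was not called against controls 1 and 2 alone (0.0856). Of the 8 cardiomyocyte markers 6 fell, as Vegfb did, and 1 rose, and their part in the fall of Vegfb was not tested.

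Vegfa, the main ligand of the Kdr receptor and also made by cardiac muscle, was at 181, 161, 177 and 191 CPM in KO and at 210, 228, 166 and 236 CPM in control. Control 3 lay among the KO values, and the difference did not pass the test (log2 fold change -0.24, SE 0.10, edgeR adjusted p = 0.0965). Without control 3 it did (log2 fold change -0.34, adjusted p = 0.00583). Angpt1 was at 295, 402, 388 and 380 CPM in KO and at 285, 235, 373 and 261 CPM in control, where control 3 again lay among the KO values (log2 fold change 0.34, edgeR adjusted p = 0.11). It passed without KO 1 (0.0404) or control 3 (0.00808). Vegfc, the ligand of the Flt4 receptor in lymphatic growth, had a level of 5.66 to 9.08 CPM in KO and 5.41 to 6.76 CPM in control (edgeR adjusted p = 0.208), and its log2 fold change of 0.26 was 0.15 without KO 2.

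All 5 receptor genes passed the test, beside 27.9% of all tested genes, and Kdr was the only one of the 5 that was lower in KO. Flt4, Flt1, Tek and Tie1 were higher. Flt4 (ENSMUSG00000020357, chromosome 11, 49609263 to 49652739, plus strand) was at 32.4, 34.1, 34.9 and 34.2 CPM in KO and at 20.3, 19.7, 19.8 and 19.6 CPM in control. Its 4 control values lay within 1 CPM of each other, and every KO value was above them, a 1.71-fold increase (log2 fold change 0.77, SE 0.06, edgeR adjusted p = 2.72e-06). Kdr (ENSMUSG00000062960, chromosome 5, 75932827 to 75978458, minus strand) was at 156, 137, 143 and 142 CPM in KO and at 168, 154, 165 and 180 CPM in control. KO 1 lay above control 2, so the groups overlapped, and the decrease was 1.15-fold (log2 fold change -0.21, SE 0.06, edgeR adjusted p = 0.0313). Kdr was no longer called when KO 2, KO 3, KO 4, control 1 or control 4 was left out (adjusted p = 0.0703 to 0.0974), or with total counts alone (0.121).

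The smaller increases in the other receptor genes were alike in size. Flt1 was at 140 to 151 CPM in KO and 117 to 136 CPM in control (log2 fold change 0.22, SE 0.06, edgeR adjusted p = 0.0187). Tek was at 188 to 212 CPM in KO and 169 to 184 CPM in control (log2 fold change 0.20, SE 0.06, edgeR adjusted p = 0.0228). Tie1, an orphan receptor that modulates Tek, was at 169 to 184 CPM in KO and 144 to 158 CPM in control (log2 fold change 0.20, SE 0.06, edgeR adjusted p = 0.0168). In none of these 3 genes did the groups overlap. All 3 calls were lost without KO 3 (0.0557 to 0.0711) and without control 4 (0.0558 to 0.0756), those on Flt1 and Tie1 also without control 1 (0.0668 and 0.062), and that on Tek without KO 2 (0.0711) or control 2 (0.0504).

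**Figure D2:**
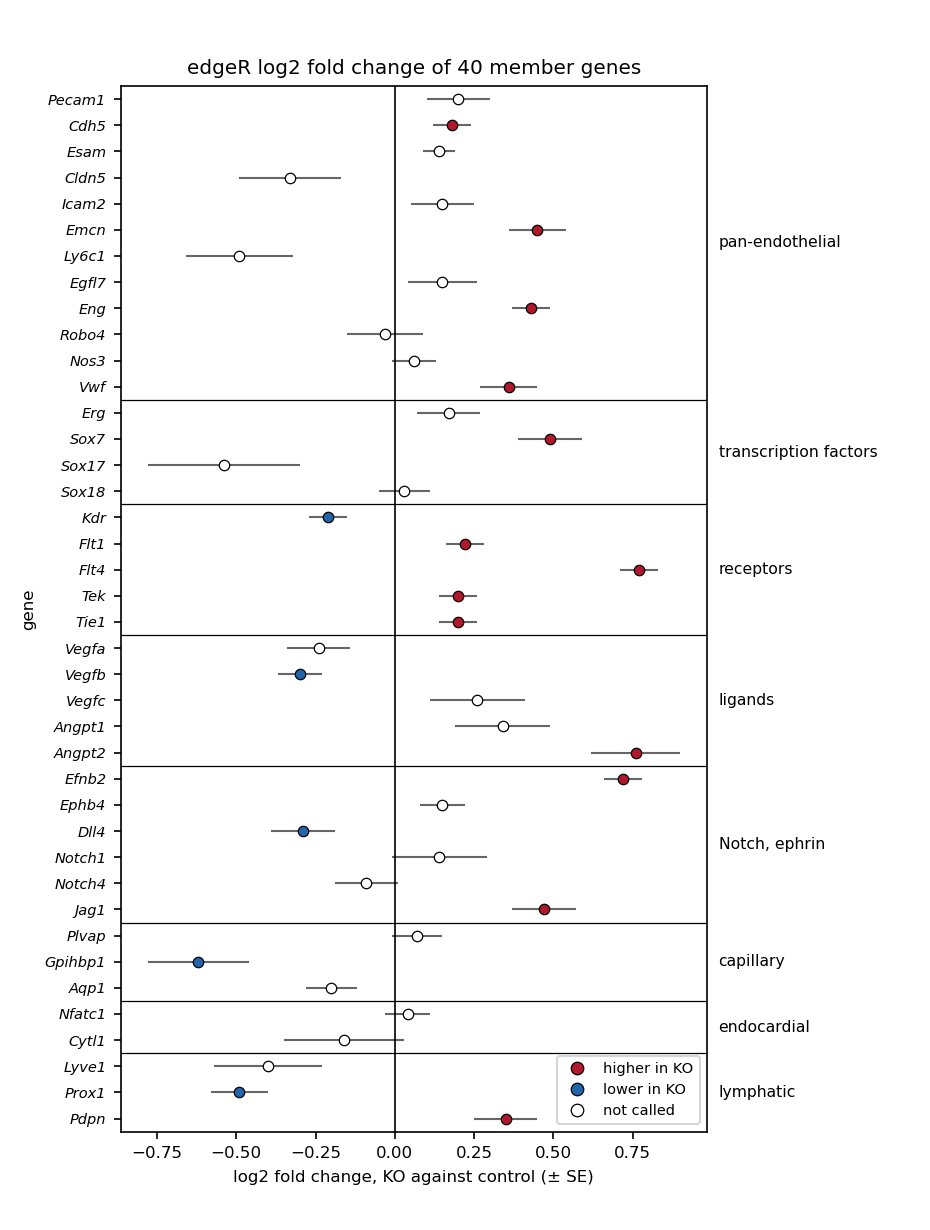
log2 fold change of KO against control for the 40 genes, with SE from edgeR (x axis), grouped by role; red points were called higher, blue points lower, and open points were not called. Within the receptors, Flt4 stands at 0.77, the other 3 called higher between 0.20 and 0.22, and Kdr at -0.21.

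The 250 bases before the RefSeq gene start are shown for Efnb2, which had a large and even increase, and for Kdr, the receptor gene that was lower in KO. The RefSeq and GENCODE starts are the same for Efnb2, and for Kdr the last 3 bases of the window lie inside the GENCODE gene. The windows are from RefSeq on GRCm38.p6, written 5′ to 3′ on the strand of the gene, and capitals mark a match to 1 of 4 motifs.
Efnb2, chr8:8661243-8661492, minus strand: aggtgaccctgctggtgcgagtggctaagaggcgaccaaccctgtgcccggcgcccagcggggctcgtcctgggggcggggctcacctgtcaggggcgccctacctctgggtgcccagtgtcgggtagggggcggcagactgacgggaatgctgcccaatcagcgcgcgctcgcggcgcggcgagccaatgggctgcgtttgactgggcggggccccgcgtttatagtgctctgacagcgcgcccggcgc
Kdr, chr5:75978456-75978705, minus strand: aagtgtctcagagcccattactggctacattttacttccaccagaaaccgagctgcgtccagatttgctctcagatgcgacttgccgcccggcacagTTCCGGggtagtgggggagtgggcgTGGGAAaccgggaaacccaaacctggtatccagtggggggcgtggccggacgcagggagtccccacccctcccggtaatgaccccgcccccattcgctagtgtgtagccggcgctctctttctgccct
The motifs, searched on both strands, were AGGAAG and CCGGAA (cores bound by ETS factors such as Erg), TGGGAA (the core bound by RBPJ, the DNA-binding partner of Notch) and GGTGTG (a T-box core). No 2 of the matches shown overlap.

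In Kdr, the reverse of CCGGAA begins 153 bases before the start and TGGGAA begins 128 bases before it. None of the 4 motifs is in the window shown for Efnb2. RefSeq promoter windows were matched for 25 of the 40 genes, 32 windows in all. AGGAAG is in 12 of these 32 windows (37.5%) and in 29.5% of all 32851 windows of that length, and TGGGAA is in 8 (25%) against 21.6%. GGTGTG is in 5 (15.6%) against 16.3%, and CCGGAA in 1 (3.12%) against 12%. These are letter matches and describe the windows only.

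Of the 12 genes of the endothelial surface, junctions and secretions, 4 rose and 0 fell by edgeR, with a median log2 fold change of 0.15. Over all tested genes 14.8% were higher and 13.1% lower. At an unadjusted p under 0.05, 5 were higher and 1 lower, and DESeq2 and limma-voom called 1 and 2 of them lower. Eng (ENSMUSG00000026814, chromosome 2, 32646595 to 32682669, plus strand), which encodes endoglin, a co-receptor for BMP9 and TGF-beta, was at 906, 831, 845 and 801 CPM in KO and at 624, 637, 641 and 600 CPM in control. The gap between the groups was wider than the spread within either, and the increase was 1.35-fold (log2 fold change 0.43, SE 0.06, edgeR adjusted p = 0.000225). Emcn (ENSMUSG00000054690, chromosome 3, 137341067 to 137432185, plus strand), the mucin of veins, capillaries and endocardium, was at 161, 130, 133 and 116 CPM in KO and at 102, 97.1, 99.9 and 95.4 CPM in control. No KO value lay among the controls, and KO 1 was the highest library (log2 fold change 0.45, SE 0.09, edgeR adjusted p = 0.00236).

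Vwf, which encodes von Willebrand factor of platelet adhesion, was at 690, 527, 550 and 581 CPM in KO and at 424, 495, 451 and 459 CPM in control. The groups did not overlap (log2 fold change 0.36, SE 0.09, edgeR adjusted p = 0.00825), and the call was lost against controls 1 and 2 alone (0.0774). Cdh5, which encodes the junction protein VE-cadherin, was at 202 to 227 CPM in KO and 178 to 202 CPM in control (log2 fold change 0.18, edgeR adjusted p = 0.0401). Cdh5 was no longer called when KO 1, KO 3, KO 4, control 1, control 2 or control 4 was left out (0.0676 to 0.115) and with the scaling factors of DESeq2 (0.0508).

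The other 8 genes of this set did not pass. Esam, a junction gene, had groups that did not overlap (59.0 to 64.7 CPM in KO, 55.4 to 56.9 CPM in control) with a log2 fold change of 0.14 (edgeR adjusted p = 0.0615). Pecam1, the platelet and endothelial adhesion gene, was at 442 to 561 CPM in KO and 373 to 496 CPM in control (log2 fold change 0.20, edgeR adjusted p = 0.142). It passed without control 2 (0.0329), and its log2 fold change was 0.13 without KO 1. Icam2, an adhesion gene for leukocytes, had a log2 fold change of 0.15 (edgeR adjusted p = 0.294), which was 0.08 without KO 1 and passed without control 3 (0.26, adjusted p = 0.0484). Egfl7, an endothelial matrix gene and the host of miR-126, was 0.15 higher in KO on the log2 scale (0.06 with control 3 left out, 0.23 with control 2 left out). Nos3, the endothelial nitric oxide synthase gene, was at 66.5 to 78.2 CPM in KO and 62.8 to 77.3 CPM in control. Robo4, a guidance receptor gene of quiescent vessels, was at 21 to 22 CPM in KO and 16.5 to 25.9 CPM in control.

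The genes with negative values in this set were Cldn5 and Ly6c1, besides Robo4 at -0.03. Cldn5, a tight junction gene, was at 8.14, 7, 6.02 and 10.4 CPM in KO and at 9.93, 9.10, 9.14 and 11.5 CPM in control (log2 fold change -0.33, edgeR adjusted p = 0.145), and it passed without KO 4 (0.0254). Ly6c1, a surface antigen gene of capillaries and monocytes, was at 24.5, 14.3, 19.7 and 25.8 CPM in KO and at 31.3, 31.4, 24.6 and 30.8 CPM in control (log2 fold change -0.49, SE 0.17, edgeR adjusted p = 0.0603). Its call was gained without KO 4 (0.035) or control 3 (0.0476). For both genes KO 4 was the highest KO library, though for Ly6c1 KO 1 was close to it (24.5 and 25.8 CPM). KO 4 also had the highest sum of adipocyte markers (53.2 CPM, beside at most 2.42 CPM in any control library). The part of adipocytes in the values of these genes was not tested.

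Of the 4 transcription factor genes, 1 rose and 0 fell by edgeR, a count near the 27.9% called over all tested genes. At an unadjusted p under 0.05, 1 was higher and 1 lower, and DESeq2 and limma-voom each called 1 higher and 0 lower. Sox7 (ENSMUSG00000063060, chromosome 14, 63943673 to 63950732, plus strand) was at 40.2, 37.9, 44.5 and 46.8 CPM in KO and at 25.6, 35.1, 30.0 and 29.7 CPM in control. Every KO value was above every control value, a 1.41-fold increase (log2 fold change 0.49, SE 0.10, edgeR adjusted p = 0.00278). Its relatives of the same SoxF subfamily did not pass. Sox18 was at 23.6 to 30.4 CPM in KO and 25.1 to 29.4 CPM in control (log2 fold change 0.03, edgeR adjusted p = 0.842). Sox17, an arterial factor gene, was at 4.16, 2.73, 4.03 and 5.17 CPM in KO and at 5.98, 7.51, 3.45 and 6.42 CPM in control. Control 3 was the low control library, and the log2 fold change of -0.54 (edgeR adjusted p = 0.129) was -0.72 without it (0.0189). Erg, the ETS factor gene of endothelial identity, was at 51.6 to 66.5 CPM in KO and 46.9 to 60.6 CPM in control (log2 fold change 0.17, edgeR adjusted p = 0.238). It was 0.25 without control 2 (0.0499) and 0.09 without KO 3.

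**Figure D3:**
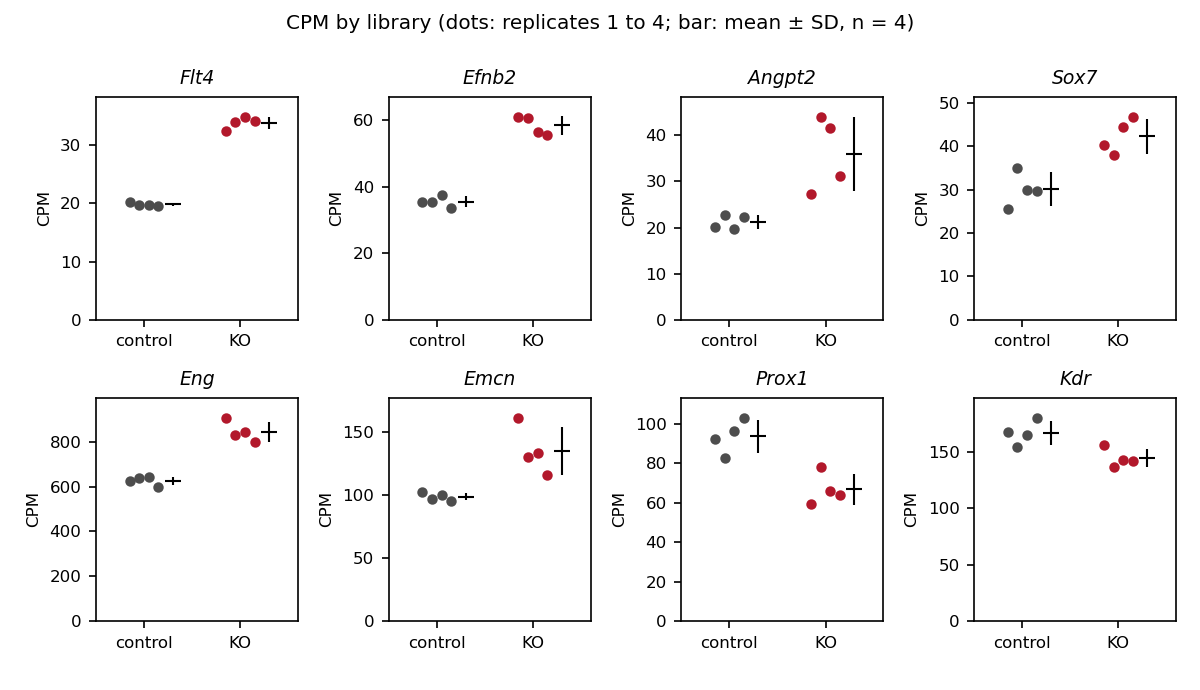
CPM of 8 genes in the control (grey) and KO (red) libraries, with the mean and SD of 4 libraries beside the dots and each y axis starting at 0. For Flt4, Efnb2, Angpt2, Sox7, Eng and Emcn the KO dots lie above all control dots, for Prox1 below them, and for Kdr the highest KO dot (156 CPM) lies above the lowest control dot (154 CPM).

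Among the 6 Notch and ephrin genes, Efnb2 and Jag1 rose and Dll4 fell, beside 14.8% higher and 13.1% lower over all tested genes. Efnb2 (ENSMUSG00000001300, chromosome 8, 8617434 to 8661242, minus strand), which encodes ephrin-B2 of arterial endothelium, was at 60.9, 60.7, 56.3 and 55.6 CPM in KO and at 35.3, 35.2, 37.5 and 33.5 CPM in control. The lowest KO library was 55.6 CPM and the highest control library 37.5 CPM, a 1.65-fold increase (log2 fold change 0.72, SE 0.06, edgeR adjusted p = 5.06e-06). Ephb4, the gene of its venous receptor, was at 142 to 167 CPM in KO and 128 to 147 CPM in control (log2 fold change 0.15, SE 0.07, edgeR adjusted p = 0.112), and it passed with total counts alone (0.0194).

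Jag1 (ENSMUSG00000027276, chromosome 2, 137081456 to 137116644, minus strand) was at 32.8, 27.4, 29.3 and 34.5 CPM in KO and at 20.8, 26.6, 19.5 and 22.7 CPM in control. The groups did not overlap, with control 2 nearest to KO (log2 fold change 0.47, SE 0.10, edgeR adjusted p = 0.00586), and the call was lost against controls 1 and 2 alone (0.0687). Dll4 (ENSMUSG00000027314, chromosome 2, 119325784 to 119335962, plus strand) was at 11.3, 12.2, 11.7 and 14.0 CPM in KO and at 14.6, 16.6, 13.6 and 15.4 CPM in control. KO 4 lay above control 3, and the decrease was 1.22-fold (log2 fold change -0.29, SE 0.10, edgeR adjusted p = 0.0417). Dll4 was no longer called when KO 1, KO 2, KO 3, control 1, control 2 or control 4 was left out (0.068 to 0.107).

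The ratio of Dll4 to Jag1 within a library does not depend on how libraries are scaled. On the log2 scale it was -1.53, -1.17, -1.32 and -1.30 in KO and -0.51, -0.68, -0.53 and -0.56 in control. The ratio was lower in 4 of 4 KO libraries than in any control, with a difference of -0.76 (two-sided exact permutation p = 0.0286, the smallest that 4 against 4 libraries can give). Adjusted over the 3 ligand ratios computed, this p was 0.0857 and did not pass 0.05. The ratio of Angpt2 to Angpt1 was -3.36 ± 0.20 in KO and -3.74 ± 0.38 in control (SD, n = 4, exact permutation p = 0.143, adjusted p = 0.214), a difference of 0.38 that was 0.21 without control 3. The ratio of Vegfa to Vegfb was 0.99 ± 0.17 in KO and 0.92 ± 0.30 in control (SD, n = 4, exact permutation p = 0.8, adjusted p = 0.8). Its difference of 0.07 was -0.08 without control 3 and -0.02 without KO 4.

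The receptors of the Notch ligands overlapped between the groups. Notch1 was at 75.3, 94.6, 123 and 116 CPM in KO and at 83.7, 109, 87.3 and 91.8 CPM in control (log2 fold change 0.14, edgeR adjusted p = 0.53). Its value was 0.26 without KO 1 and 0.04 without KO 3. Notch4, the receptor gene most restricted to endothelium, was at 23.5 to 29.3 CPM in KO and 24.8 to 33.9 CPM in control (log2 fold change -0.09, edgeR adjusted p = 0.565, and 0.00 without control 2).

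Of the 3 capillary genes, Gpihbp1 fell and 0 rose by edgeR, and 0 were higher at an unadjusted p under 0.05 or by DESeq2 or limma-voom. A single call among 3 genes is near the 27.9% called over all tested genes. Gpihbp1 (ENSMUSG00000022579, chromosome 15, 75596628 to 75599481, plus strand), which carries lipoprotein lipase to the capillary lumen, was at 18.7, 11.3, 13.8 and 18.2 CPM in KO and at 23.4, 24.4, 19.9 and 27.3 CPM in control. The groups did not overlap, and the decrease was 1.53-fold (log2 fold change -0.62, SE 0.16, edgeR adjusted p = 0.0155). It was not called against controls 3 and 4 alone (0.0837). Gpihbp1 lies 548 kb from Ly6c1 on chromosome 15, and both belong to the Ly6 family. Of the 4 pairs of listed genes within 1 Mb of each other this was the only pair with 2 negative values. Aqp1, the water channel gene, was at 307, 247, 240 and 239 CPM in KO and at 294, 279, 303 and 313 CPM in control. KO 1 alone lay among the controls, and the log2 fold change of -0.20 (edgeR adjusted p = 0.0903) was -0.30 without KO 1 (0.00222). Plvap, the gene of the diaphragm protein of fenestrated capillaries and endocardium, was at 232 to 269 CPM in KO and 206 to 263 CPM in control (log2 fold change 0.07, edgeR adjusted p = 0.594).

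Neither endocardial gene of the fixed list passed, 0 of 2 by edgeR, DESeq2 or limma-voom, and 0 at an unadjusted p under 0.05. Nfatc1, the factor gene of endocardium and valves, was at 34.7, 31.4, 33.9 and 36.3 CPM in KO and at 32.0, 30.9, 37.5 and 32.2 CPM in control (log2 fold change 0.04, SE 0.07, edgeR adjusted p = 0.738). Cytl1, a cytokine-like gene of the endocardium, was at 52.1, 60.7, 77.8 and 55.0 CPM in KO and at 71.4, 91.1, 59.9 and 52.6 CPM in control. The groups overlapped (log2 fold change -0.16, SE 0.19, edgeR adjusted p = 0.57), and the value was 0.00 without control 2 and -0.30 without KO 3. In contrast, Npr3, an endocardial marker on a wider list of endothelial cell genes, rose. Npr3 was at 815, 757, 780 and 708 CPM in KO and at 579, 593, 519 and 493 CPM in control. Its groups did not overlap (log2 fold change 0.49, SE 0.07, edgeR adjusted p = 0.000503).

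The 3 lymphatic genes did not move together. Prox1 (ENSMUSG00000010175, chromosome 1, 190118035 to 190170714, minus strand), the master factor gene of lymphatic identity that cardiac muscle also expresses, was at 59.3, 78.0, 66.1 and 64.0 CPM in KO and at 92.6, 82.6, 96.7 and 103 CPM in control. All KO values lay below all control values, a 1.40-fold decrease (log2 fold change -0.49, SE 0.09, edgeR adjusted p = 0.00185). Beside it the summed cardiomyocyte markers were lower in every KO library than in any control, and the part of muscle RNA in the fall of Prox1 was not tested. Lyve1, the hyaluronan receptor gene of lymphatics and tissue macrophages, was at 94.6, 59.1, 73.1 and 74.9 CPM in KO and at 124, 108, 85.2 and 80.2 CPM in control (log2 fold change -0.40, SE 0.17, edgeR adjusted p = 0.129). Controls 1 and 2 were higher than controls 3 and 4, and the value for Lyve1 followed the choice of controls. It was -0.65 against controls 1 and 2 alone (0.0329), -0.16 against controls 3 and 4 alone (0.551) and -0.03 in libraries with Y-linked transcripts only (0.878), an analysis added after the data were seen. DESeq2 called Lyve1 lower (adjusted p = 0.0372). Of 8 macrophage markers 4 rose and 4 did not pass by edgeR, and 1 of the 8, Cd163, had a negative log2 fold change (-0.29). The part of macrophages in the value for Lyve1 was not tested. Pdpn, the podoplanin gene of lymphatics and epicardium, was at 38.6, 36.6, 30.8 and 36.3 CPM in KO and at 28.7, 25.3, 32.9 and 25.1 CPM in control. KO 3 lay below control 3, and the increase (log2 fold change 0.35, SE 0.10, edgeR adjusted p = 0.0208) was lost without KO 2 (0.0549), KO 4 (0.0541) or control 4 (0.0698). The epicardial markers, of which 4 of 5 rose, moved in the same direction as Pdpn, and their part in the rise of Pdpn was not tested.

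Per kilobase of exon, the levels of the 40 genes in control spanned from 1.22 ± 0.361 CPM per kb for Sox17 to 155 ± 4.57 for Eng (SD, n = 4). Plvap at 117 ± 13.5 and Aqp1 at 113 ± 5.51 followed Eng, and the ranges of these 2 overlapped. Vegfb at 68.6 ± 5.08, Pecam1 at 68.3 ± 8.25 and Cytl1 at 65.1 ± 15.9 came next and did not differ beyond their spread. Among the receptor genes, the order in control was Tek (37.2 ± 1.44), Tie1 (30.6 ± 1.26), Kdr (18.4 ± 1.17), Flt1 (9.19 ± 0.641) and Flt4 (2.41 ± 0.0353), with no overlap between neighbours. Flt4 was thus the lowest receptor gene and had the largest log2 fold change of them, reaching 4.12 ± 0.131 CPM per kb in KO. Among the ligand genes, Angpt1 at 55.4 ± 11.5 stood above Angpt2 at 5.75 ± 0.415, and in KO these were 70.4 ± 9.34 and 9.76 ± 2.18.

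**Figure D4:**
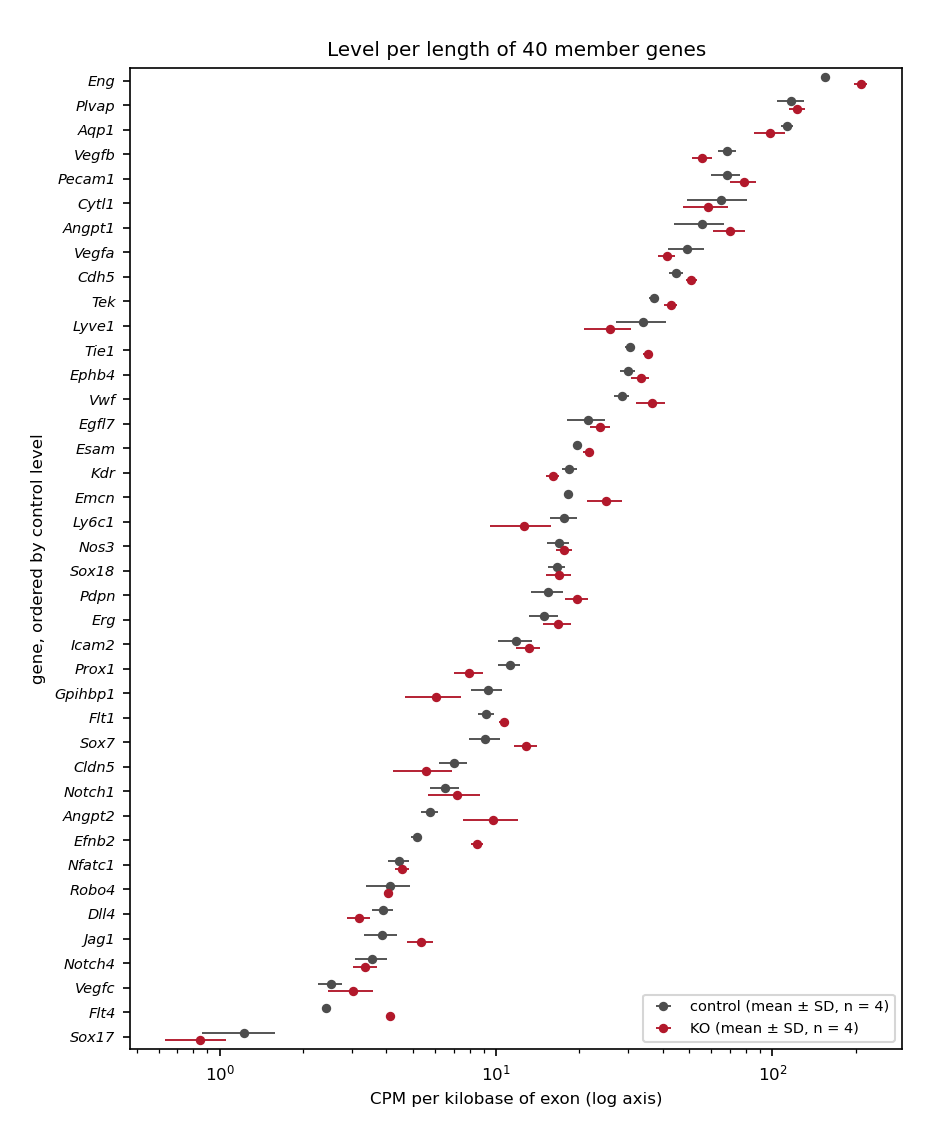
Level of each of the 40 genes per kilobase of exon on a log axis, mean and SD of 4 control (grey) and 4 KO (red) libraries, ordered by the control level. Eng is highest at 155 in control and Sox17 lowest at 1.22.

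The 12 genes of the endothelial surface, junctions and secretions summed to 2034, 2212, 2070 and 2009 CPM in control and to 2845, 2433, 2527 and 2463 CPM in KO. Their mean log2 CPM was 6.58, 6.36, 6.41 and 6.50 in KO and 6.35, 6.42, 6.30 and 6.36 in control, a difference of 0.11. The sums did not overlap between the groups. Eng weighed most in them (mean 626 CPM in control, 846 CPM in KO), followed by Vwf (457 and 587) and Pecam1 (426 and 490). Eng and Vwf were called higher by edgeR, and Pecam1 was not called. On the mean log2 CPM of the 12 genes, KO 2 and KO 3 lay below control 2. Against that mean, in the same library, the other 28 genes showed groups that did not overlap in 11 cases, 5 higher and 6 lower in KO, while 28.2% of all tested genes had groups that did not overlap on this scale. Those higher were Flt4 (difference in log2 level 0.66), Angpt2 (0.63), Efnb2 (0.61), Sox7 (0.39) and Jag1 (0.36). Those lower were Gpihbp1 (-0.74), Prox1 (-0.60), Vegfb (-0.41), Dll4 (-0.40), Aqp1 (-0.32) and Kdr (-0.31). Relative to the same mean, Flt1, Tek and Tie1 overlapped between the groups, with differences of 0.12, 0.10 and 0.10. These values have no test of their own.

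**Figure D5:**
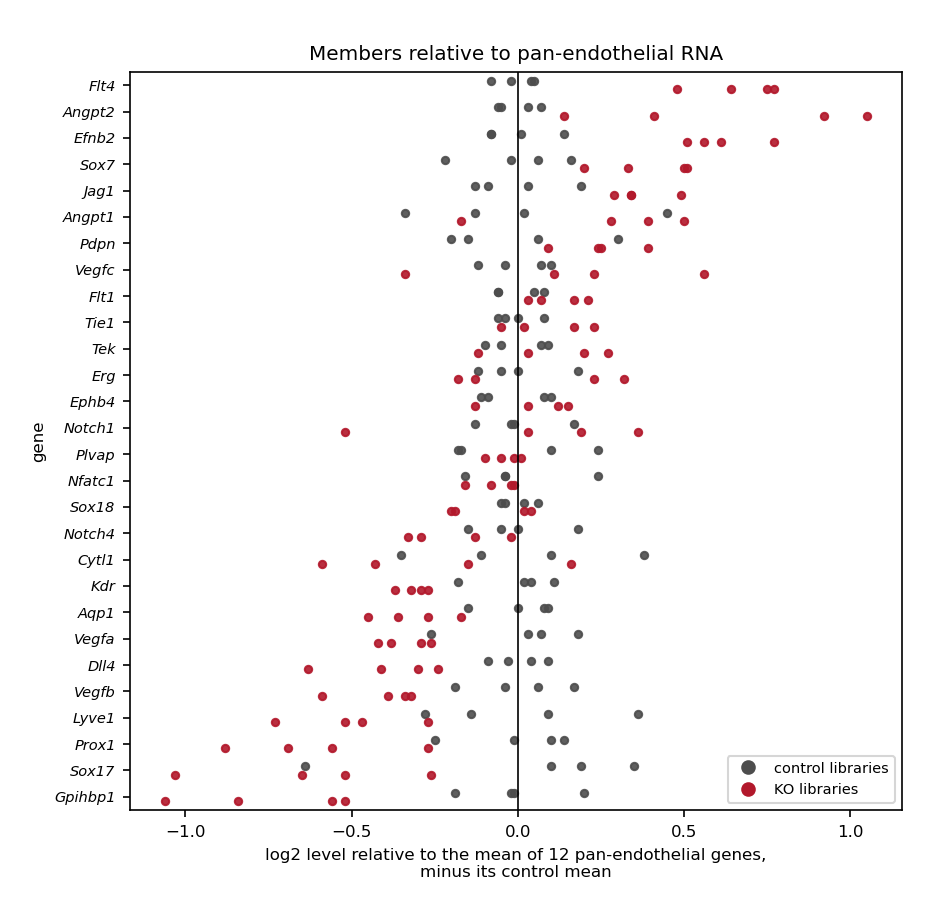
log2 level of 28 genes minus the mean log2 level of 12 pan-endothelial genes in the same library, centred on the control mean of each gene (x axis), for 4 control (grey) and 4 KO (red) libraries. Flt4 at the top differs by 0.66 and Gpihbp1 at the bottom by -0.74, and 17 of the 28 genes overlap between the groups.

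Other genes of the same pathways were read from 3 further lists of 83 genes, of which 81 were tested. Of 30 genes of angiogenic signalling, 10 rose, 3 fell and 17 did not pass (median log2 fold change 0.17), beside 14.8% higher and 13.1% lower over all tested genes and a median of 0.01. The 3 that fell are a share near that background. Adm, which encodes the vasodilator peptide adrenomedullin, was at 17.7, 19.1, 16.9 and 19.7 CPM in KO and at 51.5, 60.5, 61.1 and 78.8 CPM in control, a 3.43-fold decrease (edgeR adjusted p = 1.99e-06). Calcrl, the receptor gene for adrenomedullin, rose 1.80-fold, from 65.4 ± 8.41 to 118 ± 15.8 CPM (SD, n = 4, edgeR adjusted p = 0.000266). Edn1, which encodes the vasoconstrictor endothelin-1, rose 2.60-fold, from 4.58 ± 0.952 to 11.9 ± 2.37 CPM (SD, n = 4, edgeR adjusted p = 0.000177). Vegfd, a second ligand gene of the Flt4 receptor, rose 1.65-fold (edgeR adjusted p = 0.00293). Bmp6 rose 1.64-fold (edgeR adjusted p = 0.00971), a call lost against controls 1 and 2 alone (0.122) or controls 3 and 4 alone (0.0685). S1pr1 and Fgfr1 fell by 0.36 and 0.21 on the log2 scale, calls that were each lost without 5 of the 8 libraries in turn. For S1pr1 these were KO 3, KO 4, control 1, control 2 and control 3 (0.0508 to 0.0955), and for Fgfr1 KO 2, KO 3, control 2, control 3 and control 4 (0.0529 to 0.107).

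Of 12 further Notch pathway genes, 1 fell and 0 rose by edgeR, 1 was higher at an unadjusted p under 0.05, and DESeq2 and limma-voom called 0 higher. The gene that fell was the ligand gene Jag2, from 24.1 ± 2.61 to 19.3 ± 1.77 CPM (SD, n = 4, edgeR adjusted p = 0.0256), a call lost without KO 3 (0.0747) or control 4 (0.0777). The median of the list was 0.01, the same as over all tested genes, of which 14.8% were higher and 13.1% lower.

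Of 39 further endothelial cell genes tested, 12 rose, 8 fell and 19 did not pass, with a median log2 fold change of 0.07, beside the same 14.8% and 13.1% over all tested genes. Those with the largest increases were Cdh11 (1.73-fold), a cadherin gene of endocardial and fibroblast cells, the blood and endothelial factor genes Lyl1 (1.68-fold) and Lmo2 (1.58-fold), and the arterial kinase gene Bmx (1.55-fold). Those with the largest decreases were Apold1 (2.31-fold), Klf2 (2.04-fold), Car4 (1.93-fold) and Rgcc (1.86-fold). Klf2, the factor gene that answers blood flow, was at 22.4, 31.6, 30.2 and 31.9 CPM in KO and at 56.5, 58.0, 61.6 and 60.3 CPM in control, with no overlap (log2 fold change -1.03, SE 0.10, edgeR adjusted p = 2.16e-05). Car4, a capillary carbonic anhydrase gene, was at 1.76 to 2.76 CPM in KO and 3.01 to 5.05 CPM in control (edgeR adjusted p = 0.00423).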

How the data were processed

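The deposited table holds whole-number read counts per gene, 1 column per library, matched to samples by vector and number. The submitters' processing notes name STAR, DESeq2 and mm10. The sources used here do not give the counting tool, its strand setting or the annotation, and exons of 9 members overlap another gene (Egfl7, Eng, Nos3, Sox17, Angpt1, Ephb4, Dll4, Notch1 and Prox1). Without strand, such reads cannot be told apart. Coordinates and exon lengths are from GENCODE M21.

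Counts were tested with edgeR 4.0.16 (R 4.3.3) over the whole table: filterByExpr (minimum count 10, total 15), TMM scaling, robust quasi-likelihood test, no covariate. CPM are on the TMM scale, and log2 levels used a prior count of 2. A count of 3 corresponded to 0.0744 to 0.0885 CPM. In data simulated for KO against control (18033 genes, 200 changed), 65.7% of 1.5-fold changes were recovered and 4.07% of calls were unchanged genes. In the real data 27.9% of genes were called, so these shares need not hold there. Changes below 1.5-fold, such as those of Tek, Tie1, Flt1, Kdr and Cdh5, were not simulated. Alternatives used DESeq2 1.42.0, limma 3.58.1, other scalings, filters, covariates and subsets of libraries.

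All 40 members are named. Of each wider list, up to 4 called genes per direction with the largest log2 fold change and at least 1 CPM are named. Npr3 as an endocardial marker and a few markers of other cell types (Myh6, Pln, Gsn and Cd163) are named besides. Members and lists were chosen with earlier results of these data known. Library name prefixes were not shared between groups, so prefix and group cannot be told apart. Nothing in the labels ties libraries to different mice. Y-linked levels differed within each group, so the libraries of a group did not all come from the same animal. How many mice stand behind them is not known. The p-values then reflect only how these libraries vary, and part of that variation may be technical. Same-numbered libraries correlated in their deviations by -0.015, 0.303, -0.056 and 0.105, so numbers were not taken as pairs. Chi-square divided by its degrees of freedom was 12.2 to 31.4 for pairs within a group, above sampling noise, so no library was treated as a copy.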

Additional observations from a re-analysis of the deposited data

Results flagged for a closer look

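In 118 groups of 4 libraries (40 members, 16 further genes and 3 ratios, in KO and control), 10 values stood apart from the other 3 by more than Dixon's critical share of the range of the group. About 1 in 20 groups does so by chance. Among the members, Icam2 was at 27.2 CPM in control 3 and at 20.7 to 21.4 CPM in the other controls. Ly6c1 was at 24.6 CPM in control 3 and at 30.8 to 31.4 CPM in the others. Tie1 reached 184 CPM in KO 3, with 169 to 171 CPM in KO 1, KO 2 and KO 4. Aqp1 reached 307 CPM in KO 1, with 239 to 247 CPM in KO 2, KO 3 and KO 4.

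Among the further genes, Bmp6 was at 61.6 CPM in control 1 and at 51.5 to 52.7 CPM in the other controls. Jag2 was at 16.7 CPM in KO 3 (others 19.8 to 20.4) and at 28.0 CPM in control 4 (others 22.6 to 22.9). Cdh11 was at 174 CPM in KO 1 (others 216 to 220), Bmx at 25.1 CPM in control 4 (others 30.5 to 31.2) and Rgcc at 5.41 CPM in control 3 (others 7.49 to 7.51).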

How the results depend on the processing

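Of the 18 called members, 11 kept their call with each of the 8 libraries left out in turn and 7 kept it in all 21 alternatives. Of the 22 uncalled members, 10 were called in no alternative. The count of members higher in KO (13) was 8 against controls 1 and 2 alone and ranged from 8 to 15 with a library left out. The count lower in KO (5) was 3 with total counts alone, 9 with limma-voom, 3 against controls 3 and 4 alone, and 3 to 8 with a library left out. In 2 analyses added after the data were seen, it was 3 without KO 2 and control 2 together and 2 in libraries with Y-linked transcripts only, where 3011 genes were called in all against 5032. The median log2 fold change of the members (0.15) was 0.23 with total counts alone and 0.08 against controls 1 and 2 alone.

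With the replicate number as a block, 12 members were higher and 7 lower, while same-numbered libraries did not correlate in every pair. Under that pairing the difference in the log2 ratio Dll4 to Jag1 was -0.76 (exact sign-flip permutation p = 0.125, the smallest that 4 pairs can give). The difference in the Vegfa to Vegfb ratio ranged from -0.08 to 0.15 with a library left out.

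Sign changes occurred in 5 members, none called in any of these analyses. Robo4 (-0.03) was 0.05 with total counts alone, 0.15 against controls 3 and 4 alone, 0.04 with Y-linked expression as covariate, 0.07 without KO 2 and control 2, 0.19 in libraries with Y-linked transcripts only and -0.14 to 0.06 with a library left out. Sox18 (0.03) was -0.03 against controls 1 and 2 alone and -0.03 to 0.09 with a library left out. Notch4 (-0.09) was 0.02 against controls 3 and 4 alone, 0.07 without KO 2 and control 2, 0.10 in libraries with Y-linked transcripts only and -0.15 to 0.00 with a library left out. Nfatc1 (0.04) was -0.06 and Cytl1 (-0.16) 0.10 against controls 3 and 4 alone. Cytl1 was 0.01 without KO 2 and control 2, 0.13 in libraries with Y-linked transcripts only and -0.30 to 0.00 with a library left out. The cause of these shifts was not tested.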
